A study of Mus musculus with 34 samples.

Results

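The tumour suppressor p53 and the inhibitors of cyclin-dependent kinases (CDKs) were followed here through 10 genes, listed by name for their role, of the 23509 genes counted in each mouse kidney library. They were Trp53, which encodes p53; Mdm2, the ubiquitin ligase that degrades p53 and is itself a p53 target; the p53 targets Cdkn1a, Ccng1, Gdf15, Bax and Phlda3; and the further CDK inhibitors Cdkn1b, Cdkn2a and Cdkn2c. All 10 passed the filter on low counts, which 15644 genes passed. The 34 libraries were polyadenylated-RNA sequencing of whole kidneys collected at postnatal day 28 from mice on a C57BL6 background. UNT denotes 12 untreated wildtype mice without the transgene. PBS and RGLS4326 denote 11 mice each of the kidney-specific Pkd2 knockout (Pkhd1/cre;Pkd2 F/F, spelled Pdk2KO in the sample labels), in which Cre is driven by the Pkhd1 promoter, active in renal tubules and collecting ducts, and deletes the floxed polycystic kidney disease gene Pkd2. The sample labels, followed here, give more PBS mice than the text of the study counts. The knockout mice were injected subcutaneously on postnatal days 10, 11, 12 and 19 with phosphate-buffered saline or with 20 mg/kg RGLS4326, an oligonucleotide that inhibits the miR-17 microRNA family. PBS against UNT therefore compares cystic vehicle-treated with healthy untreated kidneys, so that genotype and injection cannot be told apart, and RGLS4326 against PBS compares drug with vehicle in cystic kidneys.

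In an unstressed cell p53 is kept low by Mdm2, and damage signals release it to activate genes that stop the cycle, repair DNA or start apoptosis. Cdkn1a (p21) and Cdkn1b (p27) are Cip/Kip inhibitors that bind cyclin-CDK complexes, whereas the INK4 proteins encoded by Cdkn2a and Cdkn2c block Cdk4 and Cdk6 upstream of the retinoblastoma protein. Cdkn2a also encodes Arf, which inhibits Mdm2. In the kidney Cdkn1a and Gdf15 are known as genes that rise in injured tubules.

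The microRNAs that the drug inhibits are shown because the 3′UTRs of 2 of the 10 genes hold a match to their seed. RefSeq gives the mature mouse miR-17 family as follows, with the seed (bases 2 to 8) in capitals, and all 6 share the seed AAAGUGC.
miR-17-5p: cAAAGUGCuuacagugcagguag
miR-20a-5p: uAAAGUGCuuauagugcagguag
miR-20b-5p: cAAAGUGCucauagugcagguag
miR-93-5p: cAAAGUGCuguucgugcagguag
miR-106a-5p: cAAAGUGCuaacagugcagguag
miR-106b-5p: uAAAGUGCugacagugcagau
The reverse complement of the seed, GCACTTT, was sought on the sense strand of every gene, within its longest 3′UTR in GENCODE M21. It occurred once in Cdkn1a, 436 bases into a 3′UTR of 1334 bases, and once in Ccng1, 1461 bases into 2316, and in none of the other 8 3′UTRs. The search also took CACTTT followed by A without the leading G, a form that none of the 10 genes held. Of 14193 tested genes with an annotated 3′UTR, 3011 (21.2%) held a match of either form. Both matches are shown in GRCm38 with the match in capitals, read in the direction of transcription.
Cdkn1a, chr17:29099821-29099841, + strand: cctgaataGCACTTTggaaaa
Ccng1, chr11:40749395-40749415, - strand: tcatgaatGCACTTTtaaggt

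The promoters of 3 members held a close match to the p53 response element, a tandem pair of decamers, here with 0 or 1 base between them. All 10 genes had RefSeq promoter windows. Windows of 300 bases (250 before to 50 after the transcript start, GRCm38.p6) were searched. The motif reads the same on both strands, so that a search of one covers the other. The fixed C and G of each decamer had to be present, and at least 18 of the 20 positions had to match. That minimum was set after the matches had been seen. Of 32851 windows, 224 (0.682%) held a match and 36 (0.1096%) held one with 19 or more positions. Cdkn1a and Ccng1 matched at 19 positions, 31 and 175 bases before the start, and Bax at 18 positions, 180 bases before it. The windows are shown because the 3 genes differed in their response below, and the matched stretch is in capitals.
Cdkn1a, chr17:29090729-29091028, + strand: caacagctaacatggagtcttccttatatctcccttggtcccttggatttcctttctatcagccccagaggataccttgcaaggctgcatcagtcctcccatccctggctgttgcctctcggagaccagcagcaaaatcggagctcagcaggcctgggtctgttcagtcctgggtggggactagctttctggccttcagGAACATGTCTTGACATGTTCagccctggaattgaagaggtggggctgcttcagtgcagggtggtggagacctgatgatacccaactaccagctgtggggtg
Ccng1, chr11:40755237-40755536, - strand: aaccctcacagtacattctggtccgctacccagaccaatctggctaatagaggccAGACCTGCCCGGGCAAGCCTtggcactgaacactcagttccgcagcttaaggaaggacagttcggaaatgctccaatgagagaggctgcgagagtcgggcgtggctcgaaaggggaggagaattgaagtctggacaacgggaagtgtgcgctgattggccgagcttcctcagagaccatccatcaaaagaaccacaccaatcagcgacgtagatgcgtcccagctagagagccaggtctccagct
Bax, chr7:45466849-45467148, - strand: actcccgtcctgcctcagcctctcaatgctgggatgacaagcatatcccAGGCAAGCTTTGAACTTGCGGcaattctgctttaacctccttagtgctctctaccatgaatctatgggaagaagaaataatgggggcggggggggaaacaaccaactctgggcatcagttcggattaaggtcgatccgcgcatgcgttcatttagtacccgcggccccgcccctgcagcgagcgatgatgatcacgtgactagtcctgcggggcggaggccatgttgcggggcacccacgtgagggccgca
A match here is a description of the letters and not a measured binding site. Cdkn1a has a further RefSeq start downstream, whose window matched at 13 positions at most under the same rule for the fixed C and G.

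Libraries held 17603122 to 54981992 reads in genes. PBS replicate 9 stood apart from the rest on the second principal component. The file names number the libraries in 3 successive runs of numbers, here called blocks 1, 2 and 3, each with 3 or 4 mice per group. Reads assigned to no gene made up 9.84 to 11.3% in UNT, 5.18 to 8.995% in PBS and 4.94 to 12.0% in RGLS4326. Pkd2, the deleted gene, was detected in every library at 220 to 338 TMM-scaled CPM (the reads of a gene per scaled library total) in UNT, 98.0 to 215 in PBS and 170 to 237 in RGLS4326. Against UNT, PBS kidneys had a Pkd2 change of -0.78 on the log2 scale with a standard error of 0.09 (quasi-likelihood test of edgeR with Benjamini-Hochberg adjustment, adjusted p = 1.25e-09), and the groups did not overlap. All log2 fold changes below come from this fit and are given ± standard error. The kidney markers Umod (thick limb) and Slc34a1 (proximal tubule) were counted in all libraries.

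Cystic PBS kidneys expressed more of most of the set than wildtype kidneys. In the fit across all genes, 7 members were higher, 2 were lower and only Ccng1 did not pass an adjusted p of 0.05. Of all 15644 genes tested, 82.0% passed in that comparison, 43.1% higher and 38.9% lower, so that the count itself is close to the background. The median log2 fold change was 0.97 over the 10 genes and 0.04 over all genes. The levels of 7 members (Trp53, Mdm2, Cdkn1a, Cdkn2a, Gdf15, Bax and Phlda3) did not overlap between PBS and UNT, beside 42.5% of all genes. The calls of Mdm2 and Cdkn1b, both lower, were lost under another scaling, as given with each gene.

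**Figure D1:**
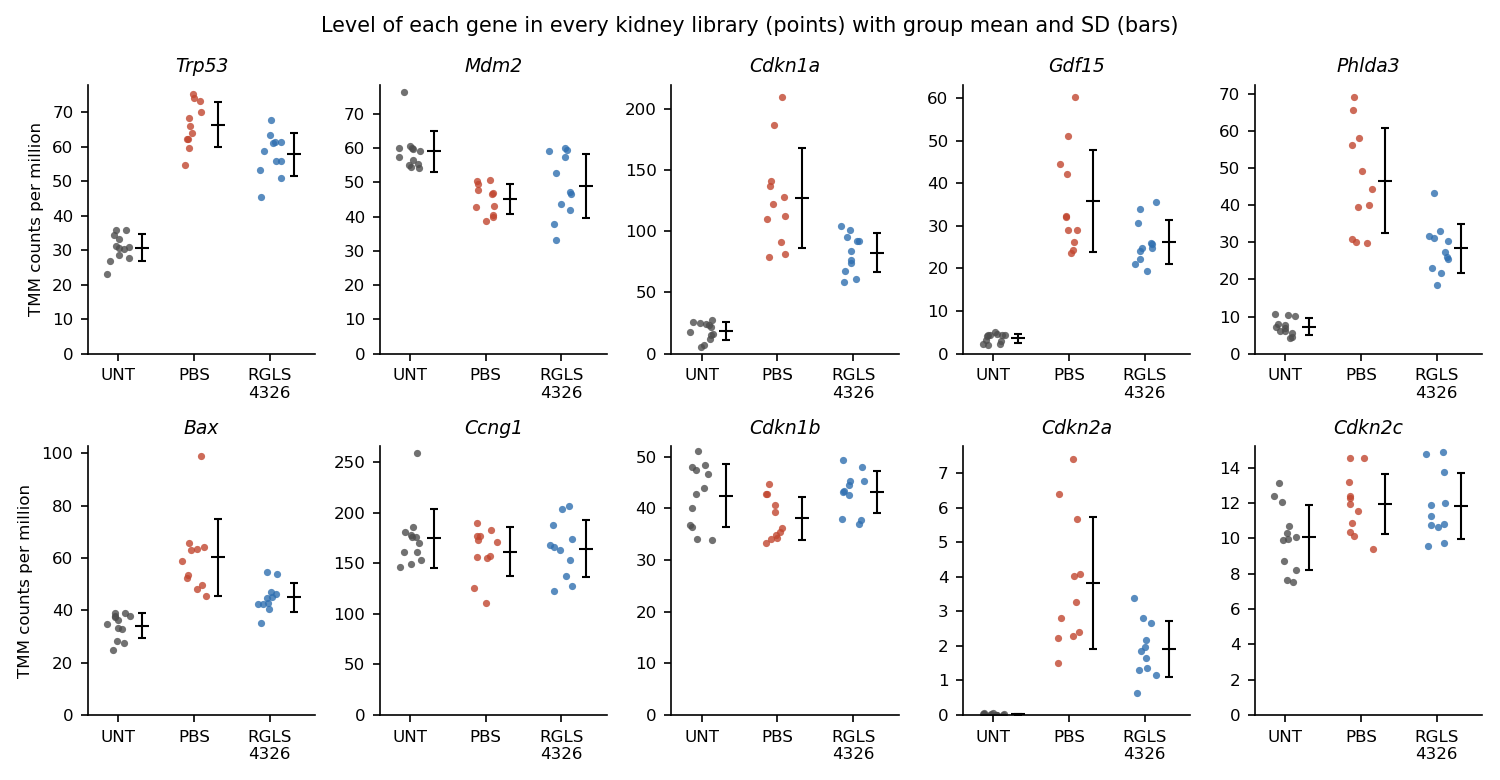
TMM-scaled CPM (linear axis from 0, one scale per panel) of the 10 genes in each UNT (n = 12), PBS (n = 11) and RGLS4326 (n = 11) library; points are libraries, and the bar beside them is the mean with 1 SD. Cdkn1a, Gdf15, Phlda3 and Cdkn2a lie far above UNT in both cystic groups and lower in RGLS4326 than in PBS, whereas Ccng1, Cdkn1b and Cdkn2c span similar ranges in all groups.

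Trp53 (chr11:69580359-69591873, plus strand, GRCm38) had 23.0 to 35.9 CPM in UNT, with a median of 30.9, and 54.6 to 75.4 in PBS, with a median of 65.9. RGLS4326 mice lay between, from 45.3 to 67.8 with a median of 58.9. Each PBS library exceeded every UNT library, and the fitted change was 1.11 ± 0.07 on the log2 scale (adjusted p = 7.11e-17), a 2.16-fold increase. In RGLS4326 the level was lower than in PBS by a log2 fold change of -0.20 ± 0.07 (adjusted p = 0.0281), and 10 of 11 mice were below the PBS median. These ranges overlapped widely. RGLS4326 kidneys stayed above every UNT kidney, with a log2 fold change of 0.91 ± 0.07.

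Mdm2 (chr10:117688875-117710758, minus strand) ran against Trp53. UNT kidneys had 54.2 to 76.5 CPM with a median of 58.3, and PBS kidneys 38.8 to 50.7 with a median of 46.5. The fall of -0.39 ± 0.08 log2 (adjusted p = 4.71e-05) left the groups without overlap. It was -0.09 (adjusted p = 0.344) when libraries were scaled by their totals alone, which shifted the median of all genes by 0.30 in this comparison, and 0.02 (adjusted p = 0.815) with the no-gene share in the fit. RGLS4326 kidneys spread from 33.2 to 60.0 around a median of 47.3, the widest of the 3 groups, and did not differ from PBS by the test (0.12 ± 0.08, adjusted p = 0.271, approximate 95% interval -0.05 to 0.28). Against UNT it was lower (-0.27 ± 0.08, adjusted p = 0.00278), a change that became 0.04 under library totals alone.

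Among the p53 targets Cdkn1a (chr17:29090976-29100727, plus strand), the p21 gene, was low and variable in wildtype kidneys. It ranged from 5.02 to 27.6 CPM in UNT with a median of 19.4, from 79.0 to 210.0 in PBS with a median of 122, and from 58.6 to 104 in RGLS4326 with a median of 84.3. The lowest PBS kidney was thus well above the highest UNT kidney, and the log2 fold change was 2.80 ± 0.21 (adjusted p = 3.12e-14), or 6.97-fold. UNT mice themselves varied, with a coefficient of variation of 41.0% beside 12.6% for Trp53. All 11 RGLS4326 kidneys lay below the PBS median and 5 below the lowest PBS kidney. The fitted difference was -0.63 ± 0.21 (adjusted p = 0.021). Relative to UNT the RGLS4326 group remained 4.51-fold higher (log2 2.17 ± 0.21), again with no overlap.

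Gdf15 (chr8:70629393-70632456, minus strand), a secreted stress cytokine of the TGF-β superfamily, was measured at 1.90 to 4.99 CPM in UNT with a median of 4.2. PBS kidneys had 23.7 to 60.3 with a median of 32.1, and RGLS4326 kidneys 19.3 to 35.6 with a median of 24.9. The rise in PBS, 3.30 ± 0.17 log2 (adjusted p = 4.81e-19) or 9.84-fold, was the steepest among the p53 targets of the set. In RGLS4326 Gdf15 was lower than in PBS by a log2 fold change of -0.45 ± 0.16 (adjusted p = 0.029), and 9 of 11 mice lay below the PBS median. It remained 7.19-fold above UNT (2.85 ± 0.17).

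Phlda3 (chr1:135766119-135769136, plus strand), which encodes a small lipid-binding repressor of Akt, followed the same order. Its level was 4.30 to 10.8 CPM in UNT with a median of 7.02, 30.0 to 69.4 in PBS with a median of 44.5, and 18.6 to 43.3 in RGLS4326 with a median of 27.3. PBS exceeded UNT by 2.67 ± 0.17 log2 (adjusted p = 1.45e-16). The decrease in RGLS4326 was -0.72 ± 0.16 (adjusted p = 0.00336), all 11 mice lay below the PBS median, and 6 lay below the lowest PBS mouse. Against UNT the RGLS4326 group was still 3.88-fold higher (SE of the log2 fold change 0.17), with no overlap.

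Bax (chr7:45461697-45466898, minus strand), the apoptotic pore-forming protein, moved less. UNT libraries had 24.9 to 39.0 CPM with a median of 35.4, PBS libraries 45.5 to 99.1 with a median of 58.7, and RGLS4326 libraries 35.2 to 54.7 with a median of 44.9. The top PBS value belonged to replicate 9, and the next PBS mouse had 65.6. Bax was 0.82 ± 0.10 log2 higher in PBS than in UNT (adjusted p = 1.64e-09) and 0.69 ± 0.08 higher without replicate 9. In RGLS4326 it was lower than in PBS by a log2 fold change of -0.42 ± 0.10 (adjusted p = 0.00425). All 11 RGLS4326 mice were below the PBS median and 7 were below the lowest PBS mouse, whereas 10 of 11 stayed above the highest UNT mouse (0.40 ± 0.10, adjusted p = 0.000411). Within library block 2 the change against UNT was 0.14 (adjusted p = 0.303).

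Ccng1 (chr11:40748552-40755311, minus strand), cyclin G1, shares the promoter match and the seed match of Cdkn1a but did not share its pattern. It had 147 to 259 CPM in UNT with a median of 173, 111 to 190 in PBS with a median of 171, and 122 to 206 in RGLS4326 with a median of 166. The 3 ranges largely coincided. Neither PBS against UNT (-0.11 ± 0.10, adjusted p = 0.269, approximate 95% interval -0.30 to 0.07, sign reversed to 0.19 under library totals alone) nor RGLS4326 against PBS (0.03 ± 0.10, adjusted p = 0.843, interval -0.16 to 0.22) passed the test.

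The further CDK inhibitors divided into one large and several small changes. Cdkn2a (chr4:89274471-89294653, minus strand), the source of the Ink4a and Arf transcripts, which gene counts do not separate, was close to absent in wildtype kidneys. The 12 UNT libraries held 0 to 2 reads each, 9 in all, and 6 of them held none. Each PBS library held 57 to 381 reads (1.49 to 7.41 CPM, median 3.28) and each RGLS4326 library 15 to 104 (0.649 to 3.38 CPM, median 1.84). Summed over mice, the PBS rate was 185 times the UNT rate with a 95% counting interval of 97.0 to 404, and the RGLS4326 rate 91.5 times with 47.9 to 201, intervals that cover counting error only. The fitted 7.28 ± 0.40 log2 change (adjusted p = 2.65e-18) depends on the prior count for so low a group. The difference between drug and vehicle did not rest on near-zero counts. Cdkn2a was lower in RGLS4326 than in PBS by a log2 fold change of -1.01 ± 0.25 (adjusted p = 0.00503), the largest treatment difference of the set, with 10 of 11 mice below the PBS median.

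Cdkn1b (chr6:134920401-134925513, plus strand), the p27 gene, had a median of 43.3 CPM in UNT (33.9 to 51.2), 36.2 in PBS (33.3 to 44.8) and 43.4 in RGLS4326 (37.0 to 49.4). It was slightly lower in PBS than in UNT (-0.16 ± 0.07, adjusted p = 0.0429), a call that turned to 0.14 (adjusted p = 0.0784) under library totals alone and was lost without any of PBS replicates 1, 2, 3, 4 and 11 (adjusted p up to 0.0805). All 11 RGLS4326 kidneys lay above the PBS median, yet the difference of 0.18 ± 0.07 missed the threshold (adjusted p = 0.0535) and passed it with the library block in the fit (adjusted p = 0.0307). Cdkn2c (chr4:109660876-109667189, minus strand), the Ink4c gene, had medians of 10.0, 11.9 and 11.2 CPM in UNT, PBS and RGLS4326 within an overall span of 7.54 to 14.9. It rose by 0.24 ± 0.10 log2 in PBS (adjusted p = 0.0209), a call held in 7 of 11 alternatives (adjusted p up to 0.741) and lost without PBS replicate 9 (0.18, adjusted p = 0.0916). It gave -0.01 ± 0.10 between drug and vehicle (adjusted p = 0.926, approximate 95% interval -0.21 to 0.18).

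**Figure D2:**
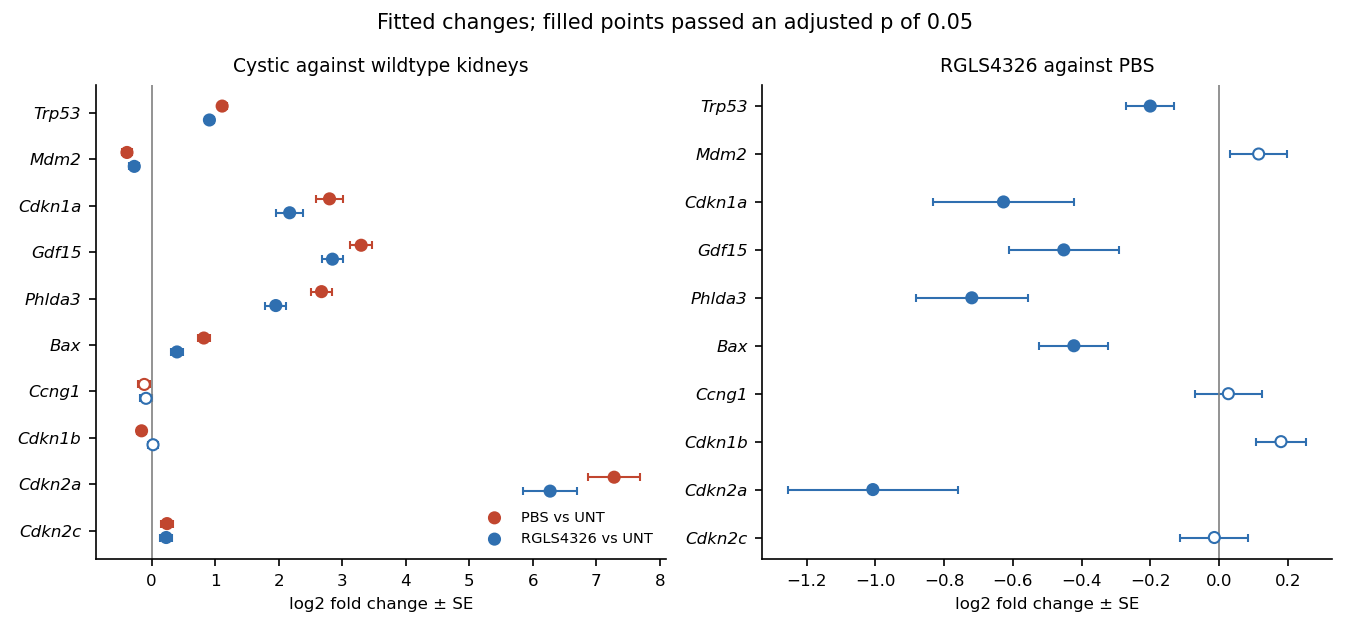
Fitted log2 fold changes with standard errors (edgeR, all 34 libraries) of PBS and RGLS4326 against UNT (left) and of RGLS4326 against PBS (right, narrower axis); filled points passed an adjusted p of 0.05. Against UNT Cdkn2a, Gdf15, Cdkn1a, Phlda3 and Trp53 lie between 0.91 and 7.28 in both cystic groups and the called rises of Bax and Cdkn2c between 0.23 and 0.82, and against PBS the 6 called genes lie between -1.01 and -0.20; under library totals alone the small negative changes of Cdkn1b and Ccng1 in PBS and of Mdm2 and Ccng1 in RGLS4326 against UNT become positive.

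RGLS4326 against PBS thus had 6 of the 10 genes called, all lower: Cdkn2a, Phlda3, Cdkn1a, Gdf15, Bax and Trp53. As given below, none stayed called with the unassigned-read share as a covariate, or in block 1 or block 3 alone. Of all genes tested, 33.7% were called in this comparison, 18.4% lower and 15.2% higher. No member was higher, and the median over the set was -0.31 on the log2 scale beside 0.00 over all genes. No member separated the drug and vehicle groups fully, which 0.0639% of all genes did. The PBS mice enter both this comparison and PBS against UNT, so an unusually high PBS value raises one change and lowers the other. Against UNT, RGLS4326 kidneys still differed in 8 of 10 genes, 7 higher and Mdm2 lower (with exceptions, among them a change of sign under library totals alone), where 77.7% of all genes were called, 40.8% higher and 36.9% lower. Mdm2 was not called lower under library totals alone (0.04), with the unassigned-read share as a covariate (-0.09, adjusted p = 0.142) or in block 2 alone (0.01, adjusted p = 0.89), and the Cdkn2c call held in 4 of 11 alternatives. Library totals alone gave 9 members higher and 0 lower, beside 9145 of all genes higher and 3471 lower. Cdkn1a, Cdkn2a, Gdf15, Phlda3 and Trp53 did not overlap with UNT in that comparison, nor did 36.7% of all genes.

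The treatment calls of Bax, Phlda3 and Cdkn2a held when any one of the 22 PBS or RGLS4326 libraries was left out. The call of Cdkn1a was lost without PBS replicate 11 (adjusted p = 0.0517), which had its highest level. Trp53 lost its call without any of PBS replicates 4, 9 and 11 and RGLS4326 replicates 1 and 6 (adjusted p up to 0.0658) and when libraries were scaled by their totals alone (adjusted p = 0.054). Gdf15 lost its call without any of PBS replicates 2, 4, 9 and 11 and RGLS4326 replicates 5 and 7 (adjusted p up to 0.0913). Without PBS replicate 4 or PBS replicate 9 alone 4 members were called, and without PBS replicate 11 alone 3. Of all genes, 4200, 4070 and 4097 were called without PBS replicates 4, 9 and 11. PBS replicates 9 and 11 had the highest 2 levels of Cdkn1a, Gdf15, Phlda3 and Cdkn2a in their group.

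Within blocks the 6 decreases had the same sign in each of the 3 blocks. Cdkn2a gave log2 fold changes of -0.73, -1.21 and -1.21 in blocks 1, 2 and 3, Phlda3 -0.71, -0.89 and -0.69, and Cdkn1a -0.44, -0.76 and -0.73. Bax gave -0.32, -0.43 and -0.52, Gdf15 -0.44, -0.23 and -0.62, and Trp53 -0.20 in each. Bax, Cdkn2a and Phlda3 were called lower in block 2 alone, where 4081 of all genes passed, and no member was called in block 1 or block 3 alone, where 32 and 0 of all genes passed, with 3384 and 2825 at an unadjusted p under 0.05. Mdm2 differed in sign, at -0.07 in block 1, 0.33 in block 2 and 0.15 in block 3, and was called higher in block 2 (adjusted p = 0.0142). The test of a treatment effect that differs between blocks called no gene, with 1115 at an unadjusted p under 0.05, and gave unadjusted p-values of 0.106 (Mdm2) to 0.997 (Trp53) over the set.

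Reads in no gene separated RGLS4326 from PBS in block 2, whereas the ranges overlapped in blocks 1 and 3. In block 2 their share was 11.3 to 12.0% in the 3 RGLS4326 mice and 5.49 to 8.995% in the 4 PBS mice, while in block 1 it was 4.94 to 8.38% and 5.18 to 7.24%, and in block 3 it was 6.14 to 11.7% and 5.67 to 6.65%. With that share as a covariate no member was called in RGLS4326 against PBS and 93 of all genes were. The differences kept their sign and shrank, to -0.67 ± 0.25 for Cdkn2a (adjusted p = 0.14), -0.45 ± 0.17 for Phlda3, -0.45 ± 0.23 for Cdkn1a, -0.32 ± 0.19 for Gdf15, -0.27 ± 0.10 for Bax and -0.12 ± 0.07 for Trp53. At an unadjusted p under 0.05, 3 members and 3195 of all genes remained. In PBS against UNT, 6 members stayed called with the covariate, all higher, among them Cdkn2a at 6.48 and Gdf15 at 3.05. Of all genes, 10967 were called in that comparison with the covariate, 5790 higher and 5177 lower.

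**Figure D3:**
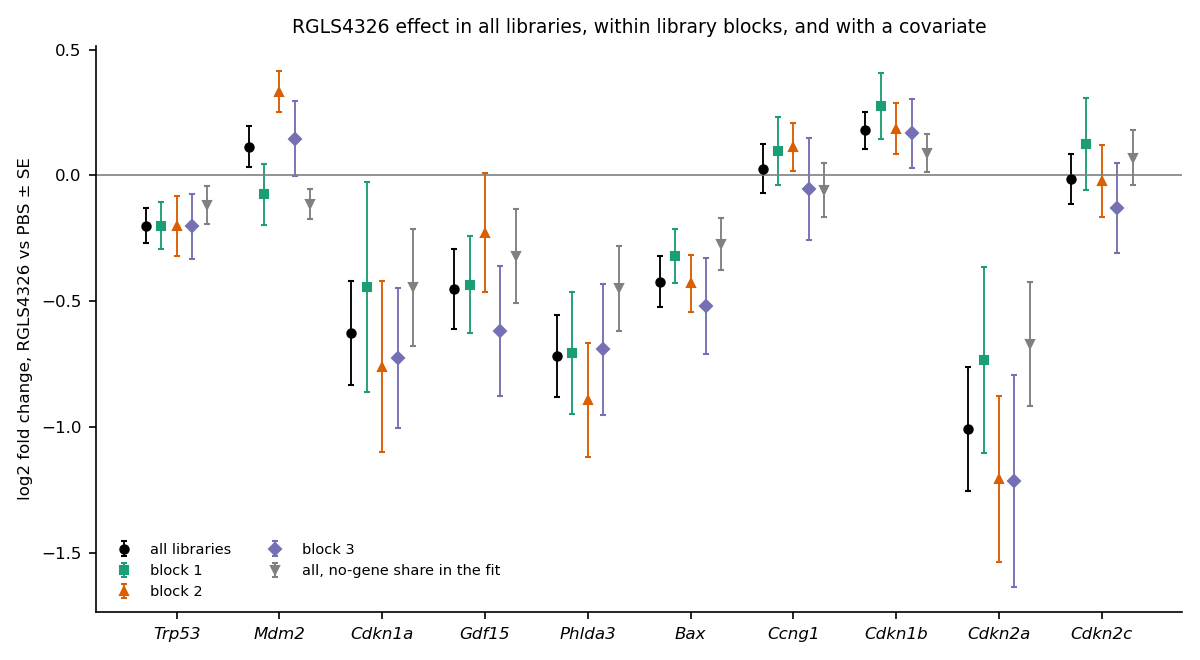
Log2 fold change of RGLS4326 against PBS (y axis, with standard error) for each of the 10 genes: all libraries, each library block alone, and all libraries with the unassigned-read share as a covariate. The 6 called genes lie below 0 in all 5 fits, between -1.21 and -0.12, whereas Mdm2, Ccng1 and Cdkn2c cross 0.

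Scaled by exon length, Ccng1 was the most abundant of the 10 in every group, at 49.7 ± 8.36 CPM per kilobase in UNT, 46.0 ± 6.93 in PBS and 46.9 ± 8.07 in RGLS4326 (SD, n = 12, 11 and 11). Bax came next in each, at 21.6 ± 3.06, 38.3 ± 9.31 and 28.6 ± 3.54 CPM per kilobase. Cdkn1a ranked 6 in UNT at 5.14 ± 2.11 and 3 in PBS at 35.8 ± 11.6, where its spread overlapped that of Bax and of Phlda3 (30.0 ± 9.11). Cdkn2a was the least abundant in all groups, at 0.0163 ± 0.0182, 3.26 ± 1.63 and 1.62 ± 0.686 CPM per kilobase. Mdm2 and Cdkn1b, at 8.90 ± 0.856 and 8.36 ± 0.913 in PBS, did not differ beyond their spread.

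Once group means were removed, the nearest companions of the genes over the 34 libraries differed, given here as Pearson's r of log2 CPM and as a description only, since all genes share each library's depth and read composition. Bax was most like Dpm2 (r = 0.94), and Mdm2 most like the cyclin L1 gene Ccnl1 (0.93). Cdkn2a was most like Ptpn6 (0.80), H2-D1 (0.79) and Spi1 (0.79), of which Ptpn6 and Spi1 are known from leukocytes. Cdkn2c was most like its relative Cdkn2d (0.81) and the mitotic genes Cdca3 (0.81) and Cdc20 (0.80). Cdkn1a was most like Ddit4 (0.76), Gdf15 most like Unc119 (0.81), Phlda3 most like Hn1 (0.85), Trp53 most like Relb (0.87) and Cdkn1b most like Pcmtd2 (0.88). Between members, Bax, Gdf15 and Phlda3 were alike in pairs (r = 0.70 to 0.73), while Cdkn1a and Trp53 gave 0.00. The pair furthest from 0 was negative, Phlda3 with Cdkn1b (r = -0.76).

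The wider p53 target list held 30 further genes, all tested. In PBS 15 were higher and 11 lower than in UNT, with a list median of 0.06 beside 0.04 over all genes, and these shares are near the 43.1% and 38.9% of all genes. The death-receptor gene Eda2r rose by 3.84 ± 0.15 log2, Apaf1 of the apoptosome by 1.53 ± 0.08 and the zinc-finger gene Zmat3 by 1.60 ± 0.08, whereas the sugar reductase gene Dcxr was lower, with a log2 fold change of -1.96 ± 0.10. RGLS4326 against PBS gave 6 lower, 1 higher and a median of -0.08, where 33.7% of all genes were called. The lower genes included the epoxide hydrolase gene Ephx1 (-0.48 ± 0.11, adjusted p = 0.00328), Zmat3 (-0.36 ± 0.08, 0.00387), Sulf2 (-0.37 ± 0.09, 0.00462) and the ferredoxin reductase gene Fdxr (-0.59 ± 0.17, 0.0102), each given with its adjusted p, and Eda2r had -0.22 ± 0.13 (0.196). Fdxr was lower in both comparisons, at -0.67 ± 0.16 in PBS against UNT. The others called were Bbc3 (-0.34 ± 0.12) and Btg2 (-0.21 ± 0.08), lower, and Sesn1 (0.19 ± 0.08), higher, all 3 named after their values were seen. Without PBS replicate 11 the treatment difference of Fdxr was -0.37 (adjusted p = 0.0288).

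Of 12 regulators of p53, 11 were tested (Trp73 was not). In PBS 4 were higher and 4 lower, and in RGLS4326 against PBS 2 (Mdm4 and Atr) were higher and none lower, where 82.0% and 33.7% of all genes were called. Mdm4, the Mdm2 relative that holds p53 inactive, moved in both comparisons. Its log2 fold change in PBS against UNT was -1.31 ± 0.24 with no overlap (adjusted p = 5.61e-06), and it was higher in RGLS4326 than in PBS by 0.95 ± 0.24 (adjusted p = 0.00572) in 10 of 11 mice against the PBS median. The checkpoint kinase gene Atr moved likewise by -0.52 ± 0.10 and 0.35 ± 0.10 (adjusted p = 0.0113). The p53 deubiquitinase gene Usp7 was lower in PBS (-0.33 ± 0.05), and the acetyltransferase gene Kat5 had 0.07 ± 0.05. Named after their values were seen, the checkpoint kinase genes Atm (0.30 ± 0.10), Chek1 (0.40 ± 0.16) and Chek2 (0.40 ± 0.09) and the p53 relative Trp63 (0.51 ± 0.10) were higher in PBS, and Rchy1 (-0.28 ± 0.06) was lower.

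The CDK inhibitors outside the set were Cdkn2b, Cdkn2d and Cdkn1c. Cdkn2b, the Ink4b neighbour of Cdkn2a, rose in PBS by 2.76 ± 0.18 log2 and was lower in RGLS4326 than in PBS (-0.51 ± 0.17, adjusted p = 0.0253). That call was lost without PBS replicate 9, PBS replicate 11 or RGLS4326 replicate 6 (adjusted p up to 0.062). Cdkn2d rose by 0.37 ± 0.08 and Cdkn1c (p57) was lower (-1.12 ± 0.09), with -0.10 ± 0.08 and -0.04 ± 0.10 under treatment, neither called. The 14 G1 cyclin, CDK and Rb pathway genes gave 8 higher and 3 lower in PBS, where 43.1% and 38.9% of all genes were called higher and lower. The rises included Ccne1 (1.29 ± 0.13), Ccnd2 (1.12 ± 0.11) and Cdk4 (0.93 ± 0.07), and the largest fold was that of Cdk6 (1.49 ± 0.16), named after its value was seen. In RGLS4326 against PBS, where 15.2% of all genes were higher and 18.4% lower, 3 were higher, Rb1 (0.45 ± 0.11, adjusted p = 0.00495, after -0.77 ± 0.11 in PBS against UNT) Rbl1 (0.31 ± 0.08) and Ccne2 (0.69 ± 0.23), and 3 were lower, Ccnd3 (-0.35 ± 0.09), Cdk4 (-0.24 ± 0.07) and E2f4 (-0.19 ± 0.05). Ccne2 (-0.51 ± 0.22) and Rbl2 (-0.36 ± 0.07), named after their values were seen, were with Rb1 the 3 lower genes in PBS.

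Of 12 Bcl2 family genes 11 were tested (Hrk was not), and all 11 were called in PBS against UNT, as were 82.0% of all genes, 9 higher and 2, Bcl2l2 (-0.33 ± 0.05) and Bid (-0.44 ± 0.06), lower, the latter pair named after their values were seen. The Bax relatives Bok (2.52 ± 0.11) and Bak1 (1.51 ± 0.10) had larger log2 fold changes than Bax (0.82 ± 0.10), a difference not tested, and the survival gene Mcl1 rose by 0.74 ± 0.06. Bok, Bak1, Bcl2l1 and Bad were lower in RGLS4326 than in PBS, by log2 fold changes of -0.42 ± 0.11, -0.40 ± 0.10, -0.42 ± 0.10 and -0.27 ± 0.09, and none of the family was higher. The 4 of 11 called stand beside 33.7% of all genes, 18.4% lower and 15.2% higher, so that the count called is near the background. Without PBS replicate 9 Bad lost its call (adjusted p = 0.0527). Bcl2l1 encodes a survival factor and the other 3 encode death effectors or sensitizers. The 10 proliferation genes were all higher in PBS, as were 43.1% of all genes, among them the mitotic kinase genes Plk1 (1.11 ± 0.16) and Aurkb (1.10 ± 0.16) and the proliferation marker Mki67 (0.60 ± 0.18). The smallest rise was that of the replication clamp gene Pcna (0.19 ± 0.07), named after its value was seen. Bub1 (0.45 ± 0.19) lost its call in PBS without PBS replicate 1, 6 or 8 (adjusted p up to 0.0664). In RGLS4326 against PBS, where 15.2% of all genes were higher, only the kinetochore kinase gene Bub1 was called, and it was higher (0.61 ± 0.20, adjusted p = 0.0192), while Mki67 had 0.38 ± 0.18 (adjusted p = 0.0902). None of the 21 genes of these 6 lists that were called under treatment stayed called with the no-gene share in the fit, and all 21 kept their sign.

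**Figure D4:**
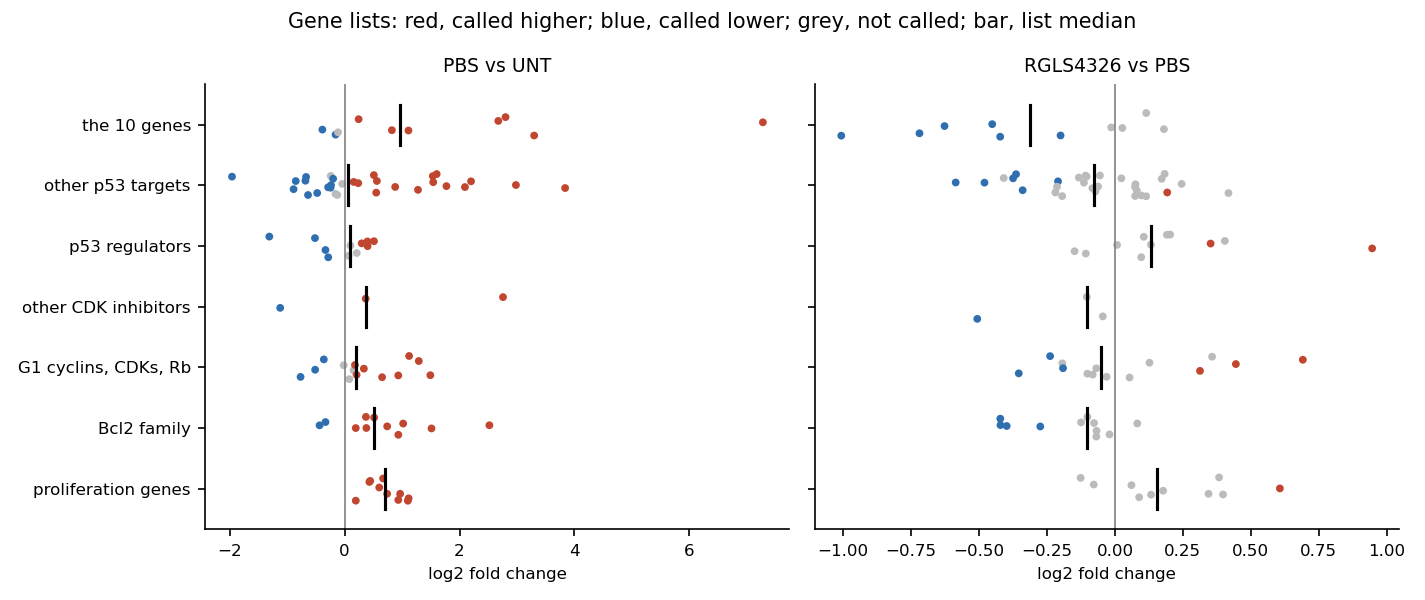
Log2 fold changes (x axis) in PBS against UNT (left) and RGLS4326 against PBS (right) for the 10 genes and the 6 gene lists; red points were called higher, blue lower, grey not called, and the black bar is the list median. The 10 genes have medians of 0.97 and -0.31, while the medians of the 6 lists lie between 0.06 and 0.71 on the left and between -0.10 and 0.16 on the right.

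Cell type markers moved in the same libraries. Of all genes tested, 43.1% were called higher and 38.9% lower in PBS against UNT. In RGLS4326 against PBS these shares were 15.2% and 18.4%. All 6 macrophage markers were higher in PBS than in UNT and 4 were lower in RGLS4326 than in PBS, with summed levels of 93.4 to 166 CPM in UNT, 786 to 2544 in PBS and 735 to 1532 in RGLS4326. Of 5 T-cell markers 4 were higher in PBS and 4 were lower in RGLS4326 than in PBS, at 3.46 to 6.01, 10.4 to 33.2 and 7.51 to 15.6 CPM. The 6 proximal tubule markers were all lower in PBS and 5 were higher in RGLS4326 than in PBS, at 8592 to 12311, 724 to 2606 and 1752 to 2925 CPM. The 5 collecting duct markers were all higher in PBS and 3 lower in RGLS4326 (383 to 681, 502 to 1791 and 289 to 1534 CPM), and the 5 injured-tubule markers were all higher in PBS with 1, Lcn2, lower in RGLS4326 (25.8 to 41.0, 878 to 1990 and 535 to 1599 CPM). The 6 fibroblast markers were all higher in PBS and none was called under treatment (452 to 1011, 2336 to 4400 and 2721 to 4049 CPM). The 2 thick limb markers were lower in PBS and higher in RGLS4326 than in PBS, and of 4 endothelial markers 2 were higher and 2 lower in PBS and 3 were higher in RGLS4326. None of these markers was at 0 in any library. In bulk tissue fewer cells of a type and less RNA per cell cannot be told apart, and the part of these shifts in the levels of the 10 genes was not tested.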

How the data were processed

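Whole-kidney RNA was sequenced as stranded polyadenylated libraries (paired reads). Per the labels and the methods of the study, the authors trimmed reads and aligned them with STAR to GRCm38. They deposited raw counts per gene from HTSeq 0.6.1 on uniquely mapped reads. The strand setting and annotation of the counting are not given in the sources used here, so reads of Cdkn1a and of an overlapping antisense gene cannot be told apart. Nor can reads of Bax and of Gm45808, an overlapping gene on the same strand that the counts do not list. Counts were fitted with edgeR 4.0.16 (quasi-likelihood, robust, TMM, filterByExpr, one group term, all 34 libraries, R 4.3.3), with Benjamini-Hochberg adjustment over 15644 genes and calls at 0.05. Log2 CPM used a prior count of 2. Names, positions and exon lengths came from GENCODE M21, and 2 of 133 listed symbols matched by an older name. On simulated counts for RGLS4326 against PBS the fit recovered 93 of 100 genes changed by 1 on the log2 scale and 74 of 100 by 0.5. Of 175 calls, 8 were false. The changed genes were drawn from well-counted genes. The simulated libraries had no differences between blocks or in the no-gene share, so these rates are not the power in the real libraries. DESeq2 1.42.0 and other alternatives are given in the closing section.

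Members and lists were chosen with earlier results of these data known. Named list genes were those with the smallest p in either comparison, up to 4 and 3 per list, and every further CDK inhibitor. The labels number the samples of a group without naming animals, so p-values measure the spread between these samples. No 2 libraries held identical counts. A companion gene of Ccng1 and a marker list are not reported here.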

Additional observations from a re-analysis of the deposited data

How the results depend on the processing

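Beyond the fit reported, 11 alternatives and the leaving out of each of 22 PBS and RGLS4326 libraries were run, the latter chosen after seeing the data. Cdkn2a had no read in 6 of 12 UNT libraries, so its fold against UNT is known only within a wide counting interval. In RGLS4326 against PBS the 5266 genes and 6 members called became 93 and 0 with the unassigned-read share as a covariate, 32 and 0 in library block 1 alone, and 0 and 0 in block 3 alone (2825 genes and 5 members at an unadjusted p under 0.05), and 4081 and 4 in block 2 alone. The cause was not tested. They became 5700 and 6 with DESeq2, and in RGLS4326 against UNT 8 members became 5 in block 2 alone, where 10221 of all genes were called. Leaving out one library gave 4010 to 6198 genes and 3 to 7 members in RGLS4326 against PBS, 12707 to 12913 and 8 to 9 in PBS against UNT, and 12026 to 12369 and 7 to 8 in RGLS4326 against UNT. Scaling by library totals alone shifted the median of all genes by 0.30 in both comparisons with UNT and moved the split of calls from 6743 higher and 6092 lower to 8966 and 4099 in PBS against UNT, and from 6382 and 5767 to 9145 and 3471 in RGLS4326 against UNT. The replicate numbers are shared between groups, and the labels do not say whether same-numbered mice belong together. In PBS against UNT, RGLS4326 against PBS and RGLS4326 against UNT, 1, 5 and 3 of 11 same-numbered pairs deviated together (correlation over 0.1). Their own number was the best match in 0, 1 and 1. So few pairs cannot exclude a pairing. With the replicate block 12780, 5089 and 12155 genes and 8, 5 and 8 members were called in PBS against UNT, RGLS4326 against PBS and RGLS4326 against UNT. The block took the call from Cdkn1b in PBS against UNT (adjusted p = 0.085) and from Gdf15 in RGLS4326 against PBS (adjusted p = 0.0586). The Cdkn2c call in RGLS4326 against UNT held in 4 of 11 alternatives (adjusted p up to 0.67) and was lost without RGLS4326 replicates 1, 4 or 8 (adjusted p up to 0.0719).

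Signs changed as follows, in log2 fold change; the cause was not tested. In PBS against UNT, library totals alone gave 0.14 for Cdkn1b, 0.19 for Ccng1 and 0.27 for Ccnd3. The unassigned-read share gave 0.021 for Mdm2, 0.019 for Cdkn1b, 0.0466 for Ccng1 and -0.0872 for Kat5. Block 1 gave -0.0502 for Kat5, block 2 gave -0.0504 for Cdkn2c, 0.079 for Ccng1 and -0.0226 for Kat5, and block 3 gave 0.27 for Ccnd3 and -0.13 for Rbl1. In RGLS4326 against PBS, the unassigned-read share gave -0.11 for Mdm2, 0.0705 for Cdkn2c, -0.057 for Ccng1, -0.0053 for Apaf1, 0.0825 for Cdkn1c and 0.0086 for Ccne1. Block 1 gave -0.0741 for Mdm2, 0.13 for Cdkn2c, -0.12 for Apaf1, 0.02 for Kat5, 0.17 for Cdkn1c, 0.0456 for Cdkn2d and 0.0304 for Plk1. Block 2 gave -0.0881 for Dcxr and 0.19 for Ccnd2, and block 3 gave -0.0534 for Ccng1 and -0.0709 for Dcxr. In RGLS4326 against UNT, Cdkn1b had -0.0121 with RLE size factors, -0.0036 without the low-count filter, -0.0549 in block 3, -0.0136 with only the 2 groups and -0.0117 with DESeq2. Library totals alone gave 0.0439 for Mdm2 and 0.23 for Ccng1, and block 2 gave 0.014 for Mdm2, -0.0732 for Cdkn2c and 0.19 for Ccng1. Leaving out single libraries, Ccng1 ranged from -0.0175 to 0.0637, Cdkn2c from -0.0516 to 0.0306 and Cdkn1c from -0.0795 to 0.0064 in RGLS4326 against PBS, and Ccnd3 from -0.0802 to 0.0202 in PBS against UNT. Of all these changed signs, those of Ccnd3 (PBS against UNT) and Ccng1 (RGLS4326 against UNT) under library totals passed the threshold (adjusted p = 0.00499 and 0.0221).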
